A study of Mus musculus with 10 samples.

Results

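The CDK inhibitor genes comprise the CIP/KIP family, Cdkn1a, Cdkn1b and Cdkn1c, and the INK4 family, Cdkn2a, Cdkn2b, Cdkn2c and Cdkn2d. They were chosen by name and not by their values, though with earlier results of these data known. Of these 7 genes, 6 were matched to a row of the deposited table of 29527 genes, and 5 passed the filter on low values together with 17268 genes in all. Cdkn2d was not analysed here, and Cdkn2a lay at the lowest level of the table. RNA of the whole pituitary intermediate lobe (IL), which was dissected from mice of 2 to 3 months, was sequenced in bulk in 10 mice, with 1 library per mouse. There were 4 wild-type (WT) mice, 3 p27-/- mice and 3 p27-/-;Sox2+/- mice. The p27-/- mice lack functional P27 throughout the body because both copies of Cdkn1b carry the Cdkn1b tm1Mf allele, and the p27-/-;Sox2+/- mice carry in addition a single functional copy of Sox2. All mice were of a mixed background according to the study's methods, which also state that males and females were used, and no group was Sox2+/- alone, so that the effect of the Sox2 allele without p27 loss was not measured.

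CDK inhibitors hold back the cell cycle by binding cyclin-dependent kinases (CDKs), the enzymes that, with a cyclin partner, phosphorylate the retinoblastoma protein RB1 and so release E2F transcription factors. INK4 proteins bind the kinases CDK4 and CDK6 alone and prevent their union with D cyclins, whereas CIP/KIP proteins bind complexes of cyclin and kinase, block those with CDK2, and can assist the assembly of D cyclins with CDK4. The pituitary is a tissue in which these genes matter, since mice without P27 develop tumours of the IL and mice without the INK4 protein P18, the product of Cdkn2c, also develop pituitary tumours of this lobe. The IL consists mostly of melanotrophs, cells that make melanocyte-stimulating hormone from the product of Pomc. The melanotroph genes Pomc, Pax7, which specifies melanotrophs, and Pcsk2, which cleaves the Pomc product, had mean WT log2 values of 18.46, 11.60 and 13.76, and each of the 8 melanotroph genes examined passed the filter.

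The values are deposited log2 expression values, and each difference given is a difference between genotype means on that scale, taken from a single limma model of all 10 mice whose p-values were adjusted over the 17268 genes by Benjamini-Hochberg. A call is an adjusted p under 0.05. Depth per sample is unknown from the table, and the median difference of all tested genes was 0.01 in either mutant against WT. The comparisons of the mutants with WT share the 4 WT mice. Because whole tissue was measured, fewer cells of a type and less RNA per cell cannot be told apart. The log2 value of Xist, which is transcribed from the inactive X chromosome of females, lay between 8.78 and 9.29 in 4 mice, namely WT replicates 3 and 4 together with replicate 2 of p27-/- and replicate 1 of p27-/-;Sox2+/-, and between 14.32 and 15.01 in the other 6. Ddx3y, a gene of the Y chromosome, lay between 8.69 and 8.81 in the 4 mice with low Xist and between 4.55 and 5.10 in the other 6. The 4 mice thus had the expression of males and the other 6 that of females. Each genotype held mice of both kinds, and values within them are given where they bear on a result.

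The start regions of the genes the results turn on are shown so that the measured transcripts can be seen beside the words that are bound by E2F and p53, known regulators of the cell cycle and of Cdkn1a. Each window is 300 bases of GRCm38.p6 from RefSeq, 250 before and 50 after an annotated start, printed 5′ to 3′ on the gene's strand. Windows were found for 6 of the 7 genes, 9 in all. Both strands were searched for the E2F words TTTCCCGC, TTTCGCGC, TTTGCCGC and TTTGGCGC, and for the p53 response element of 20 letters without spacer and with at most 1 mismatch. The windows of Cdkn1b (chr6:134920151-134920450, plus strand) and Cdkn2c (chr4:109666707-109667006, minus strand) are shown because these genes differed between genotypes. The first window of Cdkn1a (chr17:29090729-29091028, plus strand) and that of Cdkn2a (chr4:89294570-89294869, minus strand) are shown because each held a match, which is printed in capitals.
Cdkn1b: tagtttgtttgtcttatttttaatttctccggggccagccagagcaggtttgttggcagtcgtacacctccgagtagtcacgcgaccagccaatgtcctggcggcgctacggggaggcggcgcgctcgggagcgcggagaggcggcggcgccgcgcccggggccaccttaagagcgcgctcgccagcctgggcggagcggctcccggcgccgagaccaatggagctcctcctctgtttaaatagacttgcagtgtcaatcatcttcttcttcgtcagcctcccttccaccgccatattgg
Cdkn2c: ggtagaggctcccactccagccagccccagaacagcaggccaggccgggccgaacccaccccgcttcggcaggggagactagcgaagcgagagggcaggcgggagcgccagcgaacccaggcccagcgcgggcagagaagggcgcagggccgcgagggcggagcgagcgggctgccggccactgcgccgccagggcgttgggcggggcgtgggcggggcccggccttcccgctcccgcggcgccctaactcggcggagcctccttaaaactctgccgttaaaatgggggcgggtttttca
Cdkn1a: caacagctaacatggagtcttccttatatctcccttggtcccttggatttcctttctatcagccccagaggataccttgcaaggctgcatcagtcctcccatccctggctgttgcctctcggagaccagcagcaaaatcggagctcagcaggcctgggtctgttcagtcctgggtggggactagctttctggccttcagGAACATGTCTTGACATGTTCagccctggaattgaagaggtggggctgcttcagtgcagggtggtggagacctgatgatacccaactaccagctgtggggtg
Cdkn2a: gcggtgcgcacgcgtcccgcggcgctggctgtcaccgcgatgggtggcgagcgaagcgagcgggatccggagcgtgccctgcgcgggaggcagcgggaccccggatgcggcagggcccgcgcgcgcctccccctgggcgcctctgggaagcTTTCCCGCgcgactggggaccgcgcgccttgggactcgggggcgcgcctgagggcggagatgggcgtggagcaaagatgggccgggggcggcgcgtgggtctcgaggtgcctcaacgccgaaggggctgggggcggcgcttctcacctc

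The capitals in the first Cdkn1a window are the p53 element, which began at position -51 relative to the start of that window's transcript and had 1 mismatch, and such an element was present in 29 of 32851 windows of all genes (0.0883%). The second window of Cdkn1a (chr17:29093519-29093818, plus strand), at another annotated start, held no p53 element, and neither did the other windows of the family. The capitals in the Cdkn2a window are an E2F word at position -99, present in 744 of the 32851 windows (2.26%). The other 8 windows of the family held none of the E2F words. The windows shown differed in base composition, with 45 CpG pairs and 77.0% G and C in that of Cdkn2a, 33 and 73.3% in that of Cdkn2c, 30 and 62.0% in that of Cdkn1b, and 2 and 54.7% in the first window of Cdkn1a. Cdkn2a, Cdkn2c and Cdkn1a each have a second window, with 12 CpG pairs and 60.3%, 8 and 44.0%, and 23 and 64.7%. A match of letters is a description of the sequence and shows no binding in the IL.

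Compared with WT IL, Cdkn1b was lower in both mutants and Cdkn2c was higher in p27-/-, while Cdkn1a, Cdkn1c and Cdkn2b did not pass the threshold in any comparison. In p27-/- compared with WT, 2 of 5 tested members were called, where 7.78% of all tested genes were called, 3.16% higher and 4.62% lower. The groups did not overlap for the same 2 members, against 20.6% of all genes, and 3 of 5 had an unadjusted p under 0.05, against 24.1%. When p27-/-;Sox2+/- mice were compared with WT, 1 of 5 members was called, Cdkn1b, against 2.71% of all genes in either direction and 1.88% lower. In that comparison 3 of 5 did not overlap, Cdkn1b below and Cdkn2b and Cdkn2c above, against 15.0%, and 3 of 5 had an unadjusted p under 0.05, against 17.8%. Between the mutants limma called 0 of 5 members, where 0.145% of all genes were called. For that pair 1 member, Cdkn1b, had an unadjusted p under 0.05, against 6.65% of all genes, and 1, Cdkn2b, did not overlap, against 15.3%. Cdkn1b carries the null allele itself, and with 5 members the counts are a description of the family and no test of it. The order of the genotype means, from high to low, was WT, p27-/-, p27-/-;Sox2+/- for Cdkn1b, p27-/-, p27-/-;Sox2+/-, WT for Cdkn1a and Cdkn2c, p27-/-;Sox2+/-, p27-/-, WT for Cdkn2b, and p27-/-;Sox2+/-, WT, p27-/- for Cdkn1c. Of the neighbours in these orders, 1 pair was told apart by the test, WT and p27-/- for Cdkn1b.

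**Figure D1:**
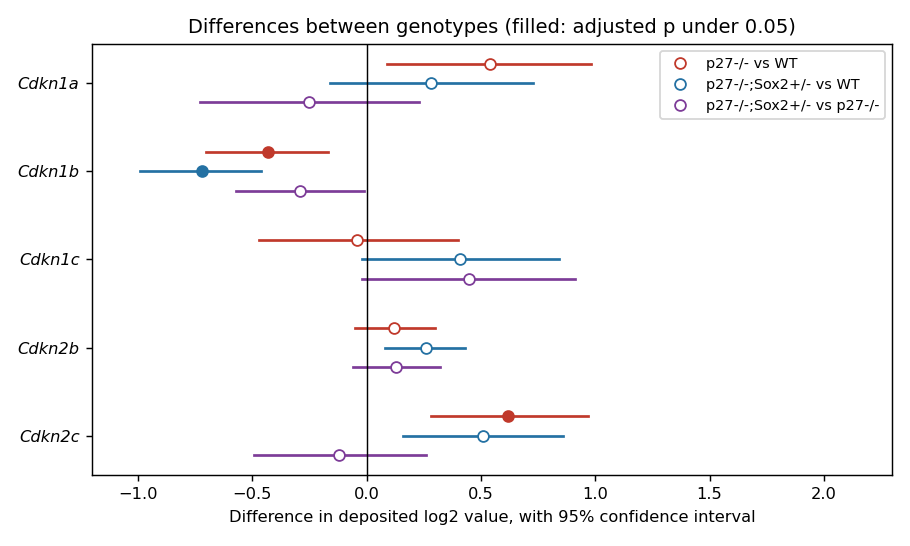
Differences in deposited log2 value (horizontal axis) of the 5 tested CDK inhibitor genes in the 3 comparisons, with 95% confidence intervals from limma and filled points for an adjusted p under 0.05. The filled points are Cdkn1b in both mutants against WT (-0.43 and -0.72) and Cdkn2c in p27-/- against WT (0.62).

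Among the CIP/KIP genes, Cdkn1b, the gene that carries the null allele and encodes P27, was lower in both mutants but still present in each of their samples. Cdkn1b (ENSMUSG00000003031, chromosome 6, 134920401 to 134925525, GRCm38) had log2 values of 8.54, 8.85, 8.39 and 8.66 in WT replicates 1 to 4. Its values were 8.27, 8.04 and 8.22 in the p27-/- mice and 8.10, 7.73 and 7.83 in the p27-/-;Sox2+/- mice. Every mutant mouse lay below every WT mouse, while the ranges of the mutants overlapped. In p27-/- the difference from WT was -0.43 (95% confidence interval -0.70 to -0.17, adjusted p = 0.0470), which corresponds to 0.74 of the WT level on the deposited scale. The p27-/-;Sox2+/- difference was -0.72 (interval -0.99 to -0.46, adjusted p = 0.00854), or 0.61 of the WT level. The value sums reads over all exons of the gene, and the sources used here do not state which part of the transcript is absent from the allele, so that it is a measure of remaining RNA and not of P27 protein. Between the mutants the difference was -0.29, with an interval of -0.57 to -0.01 and an adjusted p of 0.731, and the order WT, p27-/-, p27-/-;Sox2+/- therefore separates WT from the mutants but not the mutants from each other. The p27-/- call rested on a narrow margin, since 6 of 9 other settings and 7 of 10 fits without 1 mouse left an adjusted p of 0.05 or more, and the p27-/-;Sox2+/- call was lost only without p27-/-;Sox2+/- replicate 2 (-0.65, adjusted p = 0.0665).

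**Figure D2:**
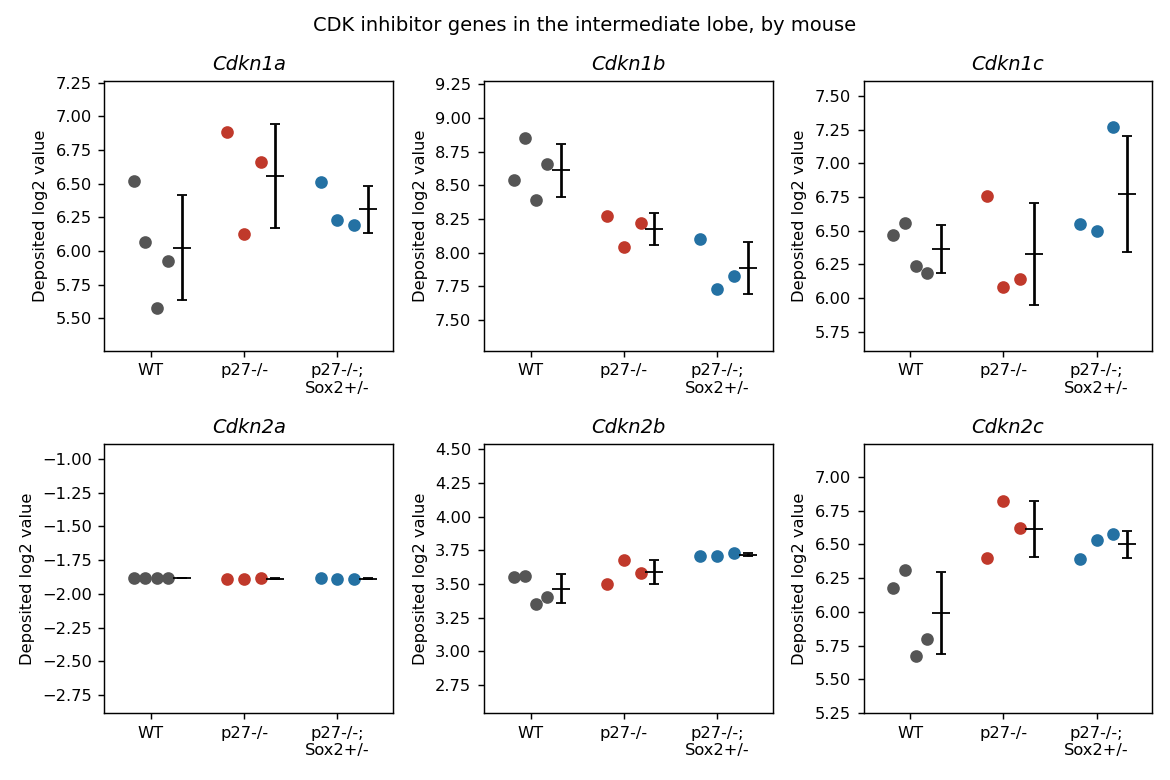
Deposited log2 values (vertical axes, each spanning 2 log2 units) of the 6 matched CDK inhibitor genes in every mouse of the 3 genotypes, with 1 point per mouse and the mean and SD beside the points. Cdkn1b of all mutant mice lies below the lowest WT value of 8.39, Cdkn2c of all mutant mice lies above the highest WT value of 6.31, and Cdkn2a is flat at -1.89 to -1.88.

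Cdkn1a, the CIP/KIP gene that encodes P21 and is a classical p53 target, did not differ between genotypes at the threshold. Cdkn1a (ENSMUSG00000023067, chromosome 17, 29090979 to 29100722) had log2 values of 6.52, 6.07, 5.58 and 5.93 in WT. It had values of 6.88, 6.13 and 6.66 in p27-/- and of 6.51, 6.23 and 6.19 in p27-/-;Sox2+/-. Both mutants overlapped WT, because WT replicate 1 at 6.52 lay above 4 of the 6 mutant mice. The difference was 0.54 in p27-/- (interval 0.09 to 0.98, adjusted p = 0.134) and 0.28 in p27-/-;Sox2+/- (interval -0.16 to 0.73, adjusted p = 0.509). Without WT replicate 1 the p27-/- difference was 0.70 (adjusted p = 0.0342), so that 1 WT mouse decided this call. The mutants differed by -0.25 (interval -0.73 to 0.23), which leaves room for a difference of either sign. Within low-Xist mice the difference from WT was 0.38 in p27-/- and 0.75 in p27-/-;Sox2+/-, each between 1 mutant and 2 WT mice. Within high-Xist mice, with 2 and 2, these values were 0.48 and -0.08. Between the mutants the difference was 0.38 within low-Xist mice, 1 and 1, and -0.57 within high-Xist mice, 2 and 2. No test was run within so few mice.

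Cdkn1c, the imprinted gene of P57 that is transcribed from the maternal copy, varied more between mice of a mutant genotype than between genotypes. Cdkn1c (ENSMUSG00000037664, chromosome 7, 143458339 to 143461059) had log2 values of 6.47, 6.56, 6.24 and 6.19 in WT, of 6.76, 6.08 and 6.14 in p27-/- and of 6.55, 6.50 and 7.27 in p27-/-;Sox2+/-. The highest value belonged to p27-/-;Sox2+/- replicate 3, and the next highest to p27-/- replicate 1, while the other mutant mice lay within or just beside the WT range. The difference from WT was -0.04 in p27-/- (interval -0.47 to 0.40, adjusted p = 0.934) and 0.41 in p27-/-;Sox2+/- (interval -0.02 to 0.84, adjusted p = 0.308). Without p27-/-;Sox2+/- replicate 3 the second difference was 0.16 (adjusted p = 0.746), and the first took the opposite sign under quantile normalization (0.02). The 2 mice with high Cdkn1c also had the highest means of anterior lobe genes, 0.06 and 0.65, and of fibroblast and mural cell genes in their genotypes, the latter 0.17 in p27-/-;Sox2+/- replicate 3 and 0.19 in p27-/- replicate 1 on a log2 scale centred over the 10 mice, against -0.55 to -0.10 in the other 4 mutant mice. WT replicates 1, 3 and 4 had higher fibroblast and mural means of 0.42, 0.30 and 0.24 at Cdkn1c values of 6.47, 6.24 and 6.19. The part of these cells in the Cdkn1c values was not tested.

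Among the INK4 genes, Cdkn2c, which encodes P18, was higher in p27-/- than in WT mice. Cdkn2c (ENSMUSG00000028551, chromosome 4, 109660876 to 109666756) had log2 values of 6.18, 6.31, 5.67 and 5.80 in WT. It had values of 6.40, 6.82 and 6.62 in p27-/- and of 6.39, 6.53 and 6.58 in p27-/-;Sox2+/-. All 6 mutant mice lay above all 4 WT mice, although the lowest mutant value of 6.39 was close to the highest WT value of 6.31. The difference in p27-/- was 0.62 (interval 0.28 to 0.97, adjusted p = 0.0346), a 1.54-fold higher level on the deposited scale. The p27-/-;Sox2+/- difference was 0.51 (interval 0.16 to 0.86, adjusted p = 0.114), which missed the threshold. The mutants themselves differed by -0.12 (interval -0.49 to 0.26, adjusted p = 0.985), so that the call in 1 mutant and not in the other is no difference between them. The p27-/- call was lost in 3 of 9 other settings and in 5 of 10 fits without 1 mouse, namely without WT replicates 3 or 4, p27-/- replicates 2 or 3, or p27-/-;Sox2+/- replicate 2, where the adjusted p reached 0.140.

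The Cdkn2c difference was larger among low-Xist than among high-Xist mice. The WT mice with low Xist, replicates 3 and 4, had Cdkn2c at 5.67 and 5.80, and the WT mice with high Xist had it at 6.18 and 6.31. The p27-/- mouse with low Xist had it at 6.82, and those with high Xist at a mean of 6.51. Within the low-Xist mice the difference was 1.09 between 1 p27-/- and 2 WT mice, and within the high-Xist mice it was 0.26 between 2 and 2. For p27-/-;Sox2+/- the corresponding values were 0.66 and 0.30. The sign was thus positive in both kinds of mice, and no test was run within so few mice. WT replicates 3 and 4 also had the highest mean of posterior lobe genes, 0.75 and 0.83, while WT replicate 1 with high Xist was at 0.56, and the part of either property in the Cdkn2c values was not tested. Cdkn1b gave -0.49 and -0.45 in p27-/- within low-Xist and high-Xist mice, and -0.43 and -0.91 in p27-/-;Sox2+/-. With Xist as a covariate Cdkn2c kept its call in p27-/- (adjusted p = 0.0447) and Cdkn1b lost it (adjusted p = 0.0565), both close to the threshold.

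**Figure D3:**
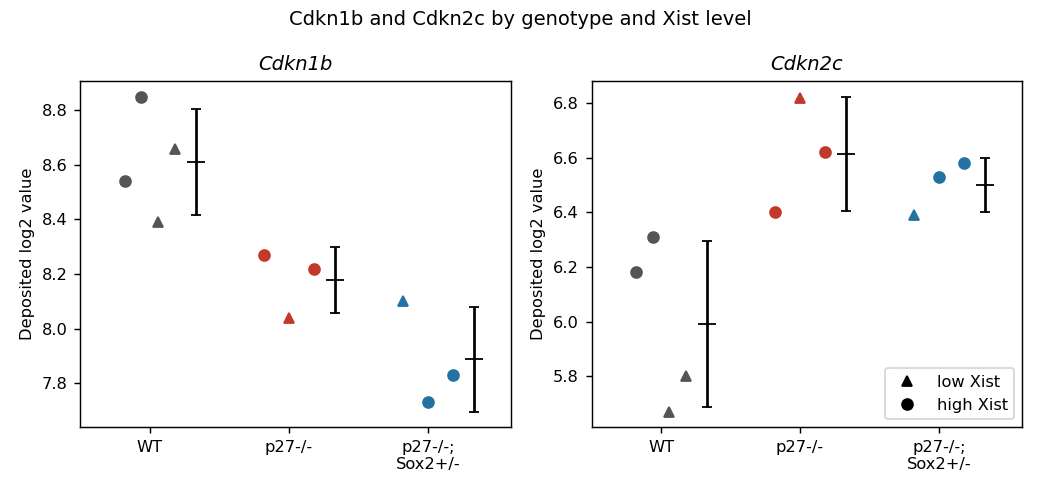
Deposited log2 values of Cdkn1b and Cdkn2c (vertical axes) in every mouse by genotype, with triangles for mice with low Xist, circles for mice with high Xist and the mean and SD beside the points. The 2 WT triangles have the lowest Cdkn2c values, 5.67 and 5.80, whereas for Cdkn1b the WT triangles at 8.39 and 8.66 lie among the WT circles.

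Cdkn2b, which encodes P15 and is known as a target of TGF-beta signalling, lay near the filter on low values and did not pass the threshold in any comparison. Cdkn2b (chromosome 4, 89306289 to 89311032) had log2 values of 3.55, 3.56, 3.35 and 3.40 in WT, of 3.50, 3.68 and 3.58 in p27-/- and of 3.71, 3.71 and 3.73 in p27-/-;Sox2+/-. The 3 p27-/-;Sox2+/- mice were almost alike and lay above all other mice. Their difference from WT was 0.26 (interval 0.08 to 0.43, adjusted p = 0.117) and that from p27-/- was 0.13 (interval -0.06 to 0.32, adjusted p = 0.927). The difference of p27-/- from WT was 0.12 (interval -0.05 to 0.30, adjusted p = 0.388), with 0.30 between 1 p27-/- and 2 WT mice with low Xist and -0.01 between 2 and 2 with high Xist. The transformation behind the deposited scale is not given in the sources used here, so that differences at this low level may not equal those from counts.

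Cdkn2a, the shared locus of the INK4 protein P16 and of ARF, which stabilises p53, had values of -1.89 to -1.88 in all 10 mice. The lowest value of the whole table is -1.89, and 340 rows of the table were at or below the highest Cdkn2a value in every mouse. Cdkn2a was therefore at the floor of the table in WT and mutant IL alike, and no fold is given. Cdkn2a and Cdkn2b are neighbours, 11.7 kb apart, and the measured gene of the pair was Cdkn2b.

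CDK4 and CDK6, the kinases that INK4 proteins bind, are activated by D cyclins. Of 5 genes of D cyclins and their kinases, 1 was called higher and 2 lower in p27-/- and 0 higher and 2 lower in p27-/-;Sox2+/-, with a median difference of -0.31 and -0.32. The shares of all tested genes called were 7.78% in p27-/- and 2.71% in p27-/-;Sox2+/-. Ccnd2, cyclin D2, had log2 values of 11.54 to 11.87 in WT, 8.34 to 8.68 in p27-/- and 9.03 to 9.91 in p27-/-;Sox2+/-. It fell by 3.16 in p27-/- (adjusted p = 3.35e-07) and fell by 2.17 in p27-/-;Sox2+/- (adjusted p = 2.46e-05), and the 3 genotypes did not overlap. Ccnd1, cyclin D1, lay between 9.35 and 9.97 in WT and fell by 1.93 in p27-/- (adjusted p = 5.33e-05) and fell by 1.43 in p27-/-;Sox2+/- (adjusted p = 0.00118). Cdk4 rose in p27-/- by 0.34 (adjusted p = 0.0397), with all mutant mice above all WT mice, and this call was kept in 2 of 10 fits without 1 mouse, those without p27-/-;Sox2+/- replicate 3 or WT replicate 2, with an adjusted p of up to 0.152 in the others. Ccnd3 had differences of -0.31 and -0.32 and Cdk6 of 0.23 and -0.19, none past the threshold. Between the mutants Ccnd2 differed by 0.99, with p27-/-;Sox2+/- higher (adjusted p = 0.0485). That call was lost in 7 of 10 fits without 1 mouse, namely without each p27-/- mouse in turn, p27-/-;Sox2+/- replicates 1 or 2, or WT replicates 3 or 4, where the difference stayed between 0.77 and 1.21 and the adjusted p reached 0.382.

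The later cyclins and their kinases are also bound by CIP/KIP proteins. Of 7 tested genes of E, A and B cyclins and their kinases, 4 rose and 0 fell in p27-/-, with a median difference of 0.51. In that comparison 3.16% of all tested genes were called higher. Ccna2, cyclin A2, had values of 5.72 to 6.39 in WT and 6.63 to 7.30 in p27-/- and rose by 0.94 (adjusted p = 0.0107), and Cdk1, the mitotic kinase, rose by 0.88 (adjusted p = 0.00279). Ccnb1 and Ccnb2, the mitotic B cyclins, rose by 0.87 and 0.51. Cdk2, the main kinase held by P27 and P21, had a difference of -0.01 and Ccne2, a cyclin E, one of 0.32, neither past the threshold. The calls of Ccnb1 and Cdk1 were kept in 10 of 10 fits without 1 mouse, and those of Ccna2 and Ccnb2 were lost without p27-/- replicate 3 (adjusted p = 0.0671 and 0.0606). Of these 7 genes limma called 0 in p27-/-;Sox2+/-, with 2 at an unadjusted p under 0.05, against 17.8% of all genes, and a median of 0.16. Between the mutants the groups did not overlap for 4 of the 7 genes, with p27-/-;Sox2+/- below for Cdk1, Ccna2 and Ccnb2 and above for Cdk2, against 15.3% of all genes, and their differences of -0.54, -0.58, -0.34 and 0.12 did not pass the threshold.

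The pocket proteins and E2F factors, through which the inhibitors act, showed 2 of 12 tested genes higher in p27-/-. Tfdp1, the dimer partner of E2F proteins, rose by 0.54 (adjusted p = 0.0135) and E2f1, an activating E2F, by 0.45 (adjusted p = 0.0374). The Tfdp1 call was lost without p27-/- replicates 1 or 3 (adjusted p of up to 0.0670), and the E2f1 call was kept in 3 of 10 fits without 1 mouse, those without p27-/-;Sox2+/- replicate 3, p27-/- replicate 1 or WT replicate 1 (adjusted p of up to 0.158 in the others). Against 7.78% of all genes called, 2 of 12 is a count too small to set the list apart. Rbl2, a pocket protein of resting cells, had a difference of -0.25 (adjusted p = 0.0874) and E2f7, an E2F repressor, one of 0.49 (adjusted p = 0.0797). Of the 12 genes limma called 0 in p27-/-;Sox2+/-, with 1 at an unadjusted p under 0.05, against 17.8% of all genes. E2f2 and E2f6 had differences of 0.26 and 0.13 there. Rb1 itself had differences of 0.07 in p27-/- and -0.05 in p27-/-;Sox2+/-, and was added after its values were seen because it is the shared target of the pathway.

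Genes that modify or degrade CIP/KIP proteins were tested in full, 17 of 17. In p27-/-, 2 rose, Dtl, which directs P21 to its ubiquitin ligase in S phase, by 0.73 (adjusted p = 0.00690) and Cks2, a small CDK-binding protein, by 0.41 (adjusted p = 0.0401), where 7.78% of all tested genes were called. The Dtl call was kept in 10 of 10 fits without 1 mouse, and that of Cks2 in 3, those without p27-/-;Sox2+/- replicates 1 or 3 or p27-/- replicate 2, with an adjusted p of up to 0.174 in the others. Cks1b, the cofactor by which SKP2 recognises P27, had a difference of 0.34 (adjusted p = 0.137), Rbx1, a ligase subunit, one of 0.22, and Uhmk1, a kinase of P27, one of -0.20. Of the 17 genes limma called 0 in p27-/-;Sox2+/-, with 5 at an unadjusted p under 0.05, against 17.8% of all genes. Spdya, an activator of CDK2, had a difference of 0.28 there. The median difference was 0.12 in p27-/- and 0.09 in p27-/-;Sox2+/-, and 15 and 16 of the 17 differences were above 0, beside a median of 0.01 and 51.6% and 52.1% above 0 over all tested genes.

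Factors that regulate transcription of the inhibitor genes gave 2 calls of 27 in p27-/-, a share close to the 7.78% of all tested genes. Id2, an inhibitor of basic helix-loop-helix factors, rose by 0.77 (adjusted p = 0.00390), and Ezh2, the histone methyltransferase that keeps the Cdkn2a locus silent in many cells, rose by 0.53 (adjusted p = 0.0274). The Id2 call was kept in 10 of 10 fits without 1 mouse, and the Ezh2 call was lost without p27-/- replicates 1 or 3 or WT replicate 4 (adjusted p of up to 0.134). Foxo3, an activator of Cdkn1b, had values of 9.68 to 9.74 in WT and 9.37 to 9.52 in p27-/-, and its difference of -0.28 just missed the threshold (adjusted p = 0.0514). Hes1, a repressor of Cdkn1b, had differences of -0.38 and -0.37 (adjusted p = 0.0713 and 0.117). Egr1, an immediate early factor, and Cbx7, a Polycomb protein that represses Cdkn2a, had differences of 0.76 and 0.32 in p27-/-;Sox2+/-. In that comparison limma called 0 of 27 genes and 8 had an unadjusted p under 0.05, against 17.8% of all genes.

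Beside Cdkn1a stand the other p53 targets, of which 19 of 21 were tested. In p27-/- 3 rose and 0 fell, Pmaip1, which encodes the apoptosis protein NOXA, by 1.00 (adjusted p = 0.00149), Gadd45a, a stress gene, by 0.61 (adjusted p = 0.0211) and Btg2, an antiproliferative gene, by 0.42 (adjusted p = 0.0474). The Pmaip1 call was kept in 10 of 10 fits without 1 mouse, that of Gadd45a was lost without each p27-/- mouse in turn or WT replicate 4 (adjusted p of up to 0.0823), and that of Btg2 was kept in 3 fits, those without p27-/-;Sox2+/- replicates 1 or 3 or WT replicate 1 (adjusted p of up to 0.148 in the others). Perp, an adhesion gene, had a difference of -0.63 (adjusted p = 0.0644). In p27-/-;Sox2+/- 1 rose, Plk2, a polo-like kinase, by 0.62 (adjusted p = 0.0241), a call that was lost without p27-/-;Sox2+/- replicates 1 or 2 or WT replicate 4 (adjusted p of up to 0.124). Eda2r, a receptor gene, had a difference of 0.21 there. Pmaip1 was between 5.20 and 5.59 in p27-/- and between 4.39 and 4.54 in p27-/-;Sox2+/-, within the WT range of 4.16 to 4.72, and the mutants differed by -0.87 (adjusted p = 0.0435). This call was kept in 2 of 10 fits without 1 mouse, those without WT replicates 1 or 3, and in the others, each without a mutant mouse or WT replicates 2 or 4, the adjusted p reached 0.207. The median over the targets was 0.13 and 0.11. The 3 of 19 targets called in p27-/- and 1 of 19 in p27-/-;Sox2+/- stand beside 7.78% and 2.71% of all tested genes.

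**Figure D4:**
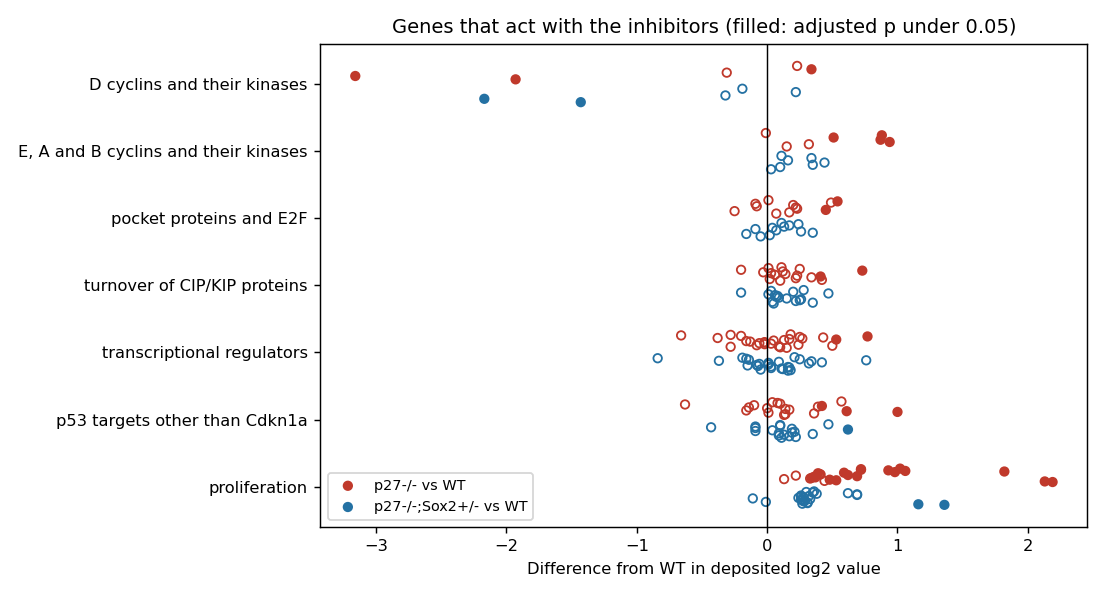
Differences from WT in deposited log2 value (horizontal axis) of the tested genes of 7 lists, 1 point per gene, for p27-/- (red) and p27-/-;Sox2+/- (blue), with filled points for an adjusted p under 0.05. The points farthest to the left are Ccnd2 (-3.16 and -2.17) and Ccnd1 (-1.93 and -1.43), and 17 of 24 proliferation genes are filled in p27-/- and 2 of 24 in p27-/-;Sox2+/-.

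The imprinted domain around Cdkn1c held no call. Of its 6 tested genes limma called 0 in p27-/- and 0 in p27-/-;Sox2+/-. In each comparison 1 had an unadjusted p under 0.05, against 24.1% and 17.8% of all genes. Kcnq1ot1, the noncoding RNA of the domain, was not analysed here. Slc22a18, a transporter gene 12.7 kb from Cdkn1c, had differences of -0.32 in both mutants (adjusted p = 0.0869 and 0.135). Kcnq1, Nap1l4, Cd81, Tssc4 and Osbpl5 had differences between -0.24 and 0.18 in p27-/- and between -0.22 and 0.18 in p27-/-;Sox2+/-. Across the loci of all 7 inhibitor genes, 1 of 25 neighbouring genes, Cdkn2b among them, was called in p27-/-, against 7.78% of all genes. It was Srsf3, a splicing factor gene 47.6 kb from Cdkn1a, which rose by 0.45 (adjusted p = 0.0154). The neighbours were the nearest tested genes with a symbol, and some lay far off, such as Elavl2 at 1900.5 kb from Cdkn2b. Of the 25 limma called 0 in p27-/-;Sox2+/-, with 8 at an unadjusted p under 0.05, against 17.8% of all genes. The 4 neighbours of the Cdkn1b null allele were not among the calls. On one side Gpr19 had differences of 0.33 and 0.40 (adjusted p = 0.106 and 0.0899), with all mutant mice above all WT mice. Crebl2, on the same side, had differences of -0.34 and -0.31 (adjusted p = 0.0849 and 0.165), with all p27-/- mice below all WT mice. Each of these differences had an unadjusted p under 0.05. On the other side Apold1 and Ddx47 had 0.04 and -0.13 in p27-/-. The noncoding RNA Lockd near Cdkn1b was not analysed here.

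Proliferation genes and markers of other cells were read in the same mice. In p27-/- 17 of 24 proliferation genes rose and 0 fell, with a median of 0.56, and in p27-/-;Sox2+/- 2 of 24 rose, Mki67 and Top2a, by 1.36 and 1.16, with a median of 0.31. Among all tested genes, 7.78% were called in p27-/- and 2.71% in p27-/-;Sox2+/-. The Top2a call in p27-/-;Sox2+/- was lost without replicates 1 or 3 of that genotype (adjusted p of up to 0.0659). The mean of the proliferation genes, centred over the 10 mice, lay between -0.44 and -0.16 in WT, between 0.26 and 0.59 in p27-/- and between -0.03 and 0.14 in p27-/-;Sox2+/-. Cdkn2c and this mean were thus both higher in mutants. The mouse with the highest Cdkn2c of its genotype had the highest proliferation mean in WT (replicate 2, 6.31 and -0.16) and in p27-/-;Sox2+/- (replicate 3, 6.58 and 0.14), and the lowest in p27-/- (replicate 2, 6.82 and 0.26). The mouse next in Cdkn2c had the lowest mean in WT (replicate 1, 6.18 and -0.44, shared with replicate 4). It also had the lowest in p27-/-;Sox2+/- (replicate 2, 6.53 and -0.03), but the highest in p27-/- (replicate 3, 6.62 and 0.59). Within genotypes the 2 measures thus had no common order. The part of cycling cells in the Cdkn2c values was not tested.

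**Figure D5:**
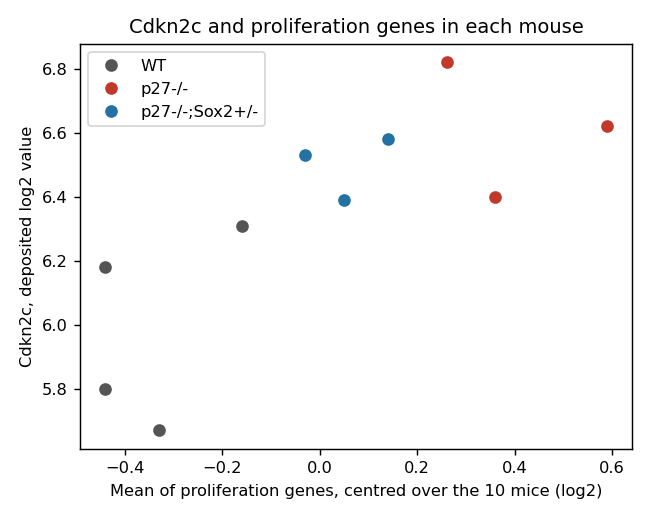
Cdkn2c log2 value (vertical axis) against the mean of 24 proliferation genes, centred over the 10 mice (horizontal axis, log2), with 1 point per mouse coloured by genotype. WT mice lie at lower left, the p27-/- mice farthest right and the p27-/-;Sox2+/- mice between them on the horizontal axis at Cdkn2c values of 6.39 to 6.58.

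Markers of the posterior lobe, anterior lobe, vessels, fibroblasts and macrophages tended to have lower values in the mutants, with few calls. Over all tested genes, 7.78% and 2.71% were called in the mutants, and 24.1% and 17.8% had an unadjusted p under 0.05. The median difference from WT was -0.67 and -0.66 for posterior lobe genes, with 0 of 8 above 0 in either mutant, -0.38 and -0.25 for endothelial genes, with 0 and 1 of 7 above 0, and -0.45 and -0.35 for fibroblast and mural genes, with 2 and 0 of 8 above 0. The mean of 8 posterior lobe genes ranged from -0.59 to 0.83 in WT, from -0.34 to -0.11 in p27-/- and from -0.72 to 0.57 in p27-/-;Sox2+/-, with 0 of 8 called in either mutant and 4 and 2 at an unadjusted p under 0.05. The mean of 7 tested endothelial genes ranged from -0.09 to 0.40, from -0.31 to -0.07 and from -0.25 to 0.16, with 1 of 7 called lower in each mutant. The 8 fibroblast and mural genes ranged from 0.01 to 0.42, from -0.55 to 0.19 and from -0.47 to 0.17, with 2 and 0 called lower. The 7 tested genes of the anterior lobe ranged from -0.27 to 1.70, from -0.88 to 0.65 and from -0.80 to 0.06, with 1 called lower in each mutant. Their median difference was -0.36 in p27-/- and -0.39 in p27-/-;Sox2+/-, with 2 and 0 of 7 above 0. That of the macrophage and microglia genes was -0.13 and -0.22, with 0 of 8 above 0 in either mutant. The 8 macrophage and microglia genes ranged from -0.26 to 0.55, from -0.03 to 0.04 and from -0.27 to 0.06, and the 3 tested red blood cell genes from -0.31 to 0.79, from -0.87 to 1.29 and from -1.02 to 0.58, without a call by limma and with 0 and 1 at an unadjusted p under 0.05 in both lists. The 7 tested pituitary stem cell genes ranged from -0.00 to 0.16, from -0.25 to -0.01 and from -0.07 to 0.03, and the 8 melanotroph genes from -0.18 to 0.07, from 0.01 to 0.11 and from 0.00 to 0.05. Of the stem cell genes 1 rose and 1 fell in p27-/- and limma called 0 in p27-/-;Sox2+/-, with 2 at an unadjusted p under 0.05. Of the melanotroph genes Pcsk2 rose in p27-/- by 0.53, and Pcsk1, another enzyme of hormone cleavage, fell by 0.45 in p27-/- and fell by 0.42 in p27-/-;Sox2+/-. Every gene of the fibroblast and posterior lobe lists passed the filter on low values. So did every endothelial gene except Cldn5, which lay between 1.75 and 1.95. The part of these cell types in the lower Cdkn1b and higher Cdkn2c of the mutants was not tested.

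The genes whose pattern over the 10 mice was most like that of Cdkn1b were Stard5, a lipid transfer protein gene (Pearson r = 0.96, Spearman rho = 0.90), Spats2l (0.94 and 0.98) and B4galt5, a galactosyltransferase gene (0.94 and 0.93). For Cdkn2c they were Tbc1d16, a Rab GTPase-activating protein gene (0.96 and 0.94), Ulk2, an autophagy kinase gene (0.95 and 0.82), and the gene with identifier ENSMUSG00000060121 (0.95 and 0.95). These are the highest of the 14854 tested genes with a symbol, the inhibitor genes left out, over 10 mice of 3 genotypes. The points share their genotype, and the genes are given as a description. Without the 2 mice farthest from the median of the inhibitor gene, r lay between 0.90 and 0.95 for Cdkn1b and between 0.81 and 0.95 for Cdkn2c. After removal of genotype means r lay between 0.72 and 0.78 and between 0.86 and 0.91. Of the 6 genes, Tbc1d16 rose in p27-/- (0.38, adjusted p = 0.0382) and Spats2l fell in p27-/-;Sox2+/- by 0.50 (adjusted p = 0.0353).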

How the data were processed

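Groups were taken from the genotype in the sample labels. Total RNA of dissected IL was turned into cDNA and libraries that do not mark strand. The authors mapped and counted the reads with RSEM and STAR 2.5.2a on the Ensembl mouse GRCm38 transcriptome, normalised with DESeq2 1.18.1 and deposited log2 values in 1 table. The transformation is not given in the sources used here. Folds are on that deposited scale and may not equal those from counts, above all for genes with few reads. Because the table holds no counts, no count test was run, the depth of each single sample is unknown, and precision rests on how many mice there were. Replicates are separate mice.

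Identifiers were matched to symbols for 22709 of 29527 genes, and 14854 of the 17268 tested genes had one. Tested genes had a mean of at least 10 on the linear scale, which is 3.32 in log2. limma 3.58.1 in R 4.3.3 was fitted with a mean-variance trend to the 3 genotypes at once and tested on simulated data. Tables, sequence searches and figures were made with Python 3.11.15, numpy 2.4.6, pandas 2.3.3 and matplotlib 3.10.9. Levels were not compared between genes. The CDK inhibitor genes, the lists and the motifs were chosen with earlier results of these data known. The named genes are all members and the nearest 2 tested genes with a symbol on each side. Added to these are the 3 tested genes with a symbol that are most like each called member. For each pathway list, up to 4 genes with the smallest p in p27-/- against WT and 2 in p27-/-;Sox2+/- against WT are named. The alternatives were quantile normalization, median centring, array weights, a fit without the trend or of only 2 groups, no filter, a mean of at least 50, Xist as a covariate, a replicate block and fits without each mouse.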

Additional observations from a re-analysis of the deposited data

Results flagged for a closer look

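In the pathway lists, 2 genes differed between the mutants, by a test of the difference itself, and both calls were narrow. They were 1 of 5 tested genes of D cyclins and their kinases and 1 of 19 tested p53 targets. Among all tested genes, 0.145% were called between the mutants. Ccnd2, cyclin D2, was 0.99 higher on the log2 scale in p27-/-;Sox2+/- than in p27-/- (limma, adjusted p = 0.0485), and was higher in 3 of 3 mice. The call was kept in 3 of 10 fits without 1 mouse and in 4 of 9 other settings, and the adjusted p reached 0.382. Pmaip1, the gene of NOXA, differed by -0.87 (adjusted p = 0.0435), and was lower in 3 of 3 mice. This call was kept in 2 of 10 fits without 1 mouse and in 4 of 8 other settings, and the adjusted p reached 0.207. In 13 measures, each read in the 4 WT mice, no mouse lay apart from the others by Dixon's criterion.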

How the results depend on the processing

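In p27-/- against WT, the number of CDK inhibitor genes called was 0 without the filter, 0 with only the 2 groups compared, 1 without the trend, 1 with median centring and 1 with Xist as a covariate. Cdkn1b was then no longer called, with differences of -0.43 (adjusted p = 0.0842), -0.43 (0.0638), -0.43 (0.0533), -0.42 (0.0538) and -0.44 (0.0565). Cdkn2c lost its call without the filter (0.62, adjusted p = 0.0514) and with only the 2 groups (0.62, 0.0652). Calls over all genes were 831 without the filter and 807 with the 2 groups. Cdkn1c, not called, took the opposite sign with quantile normalization (0.0199) and without p27-/- replicate 2 (0.0856), p27-/- replicate 3 (0.06) or WT replicate 2 (0.03). In p27-/-;Sox2+/- against WT, array weights gave 2 members, with Cdkn2c at 0.51 (adjusted p = 0.0432), and 1240 genes, and only the 2 groups gave 260 genes. Between the mutants, all-gene calls were 6 without the filter, 45 with the 2 groups, 8 without the trend, 283 with array weights and 15 with quantile normalization. The cause of these changes was not tested.

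With 1 mouse left out, 0 to 3 members were called in p27-/- against WT, 0 to 1 in p27-/-;Sox2+/- against WT and 0 between the mutants, and all-gene calls ranged from 402 to 1707, from 79 to 656 and from 0 to 41. Without WT replicate 1 the 3 called members included Cdkn1a. In p27-/- Cdkn1b ranged from -0.51 to -0.35, Cdkn2c from 0.52 to 0.73, Cdkn1a from 0.37 to 0.75 and Cdkn1c from -0.25 to 0.09. In p27-/-;Sox2+/- Cdkn1b ranged from -0.83 to -0.64. The mice whose loss ended a call of Cdkn1b in p27-/- were p27-/-;Sox2+/- replicates 2 and 3, each p27-/- replicate, and WT replicates 2 and 4.

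Mice with the same replicate number did not deviate together, with correlations of -0.238 to 0.182, and 1 of 9 samples was most like one with its own number. The replicate block, which pairs by number only, gave 0 members and 595 genes in p27-/- against WT, with Cdkn1b at -0.42 (adjusted p = 0.133) and Cdkn2c at 0.56 (0.0916), 209 genes in p27-/-;Sox2+/- against WT and 2 between the mutants. Since the values are already log2, no other pseudocount was run, and Cdkn2b has no value at a mean of at least 50.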
